A study of Homo sapiens with 9 samples.

Results

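The 10 genes described here encode the enzymes that remove N6-methyladenosine (m6A) from RNA, FTO and ALKBH5, and the proteins that place it: METTL3, METTL14, WTAP, KIAA1429, RBM15, ZC3H13, CBLL1 and METTL16. They were chosen by name for these roles, and all 10 were found among the 21170 features of the count table and had enough counts to be tested with 13713 genes in all. KIAA1429 is the older symbol of VIRMA and is the one the table uses.

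The cells were HaCaT, a spontaneously immortalized line of human keratinocytes, and each library is a poly(A) RNA sequencing library. There were 3 groups of 3 libraries: cells overexpressing an empty vector (Vector), cells overexpressing wild-type FTO (FTO), and cells overexpressing an FTO mutant whose demethylase activity is disrupted (mut-FTO). All groups therefore carry a vector and keep the FTO gene of the cells. The labels give neither the promoter of the construct nor the mutated residues, and do not say whether a group was 1 clone or a pool of cells. They name no separate cultures either, so a p-value covers the spread between these libraries only, which may be technical. Keratinocyte markers fitted the labelled cell type, with a summed level of 18555 to 24528 CPM (counts scaled to a common library size) in Vector, 22867 to 23817 in FTO and 26169 to 32966 in mut-FTO. The melanocyte list summed to at most 2.54 CPM in any library, and the fibroblast list to at most 9.90 CPM. The 6-gene leukocyte list summed to 67.4 to 90.6 CPM in Vector, 66.3 to 74.2 in FTO and 68.7 to 109.5 in mut-FTO. Most of it came from CD68 (61.8, 54.1 and 58.6 CPM on average in Vector, FTO and mut-FTO) and CD14 (13.7, 16.2 and 27.6 CPM), while PTPRC had 2 counts in mut-FTO and none elsewhere.

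N6-methyladenosine is the commonest internal modification of messenger RNA. METTL3 is the catalytic subunit that transfers the methyl group from S-adenosylmethionine, METTL14 is its structural partner, and WTAP, VIRMA, RBM15, ZC3H13 and CBLL1 hold the pair on its targets. METTL16 is a separate enzyme that methylates the U6 small nuclear RNA and hairpins at the end of the MAT2A messenger, while FTO and ALKBH5 are dioxygenases that use iron and 2-oxoglutarate to take the mark off.

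A pair of sequence sets is given for genes whose RNA levels are reported below. Whether these sequences bear on those levels was not tested. The first is the stretch between the start of FTO (chromosome 16, 53703963 to 54121941, plus strand) and the start of its neighbour RPGRIP1L (53598153 to 53703859, minus strand), read from RefSeq promoters on GRCh38.p14 and given on the plus strand as chr16:53703860-53703962. It is shown because, by these gene coordinates, the cells' own FTO gene starts here. Its neighbour, read in the opposite direction, starts with only 103 bases between and is not part of the construct. Capitals mark a match, on the minus strand at 53703909 to 53703922, to a core of the ZNF143 binding motif, which reads ACTACA, any 2 bases, then TCCCAG.
FTO-RPGRIP1L stretch: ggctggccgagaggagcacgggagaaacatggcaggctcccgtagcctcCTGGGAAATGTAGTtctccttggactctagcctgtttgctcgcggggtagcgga

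Both strands were searched for that motif in windows from 250 bases before to 50 bases after each listed promoter start. For FTO that window is 53703906 to 53704205. Its promoter start therefore lies further downstream than the gene start of 53703963 used for the stretch above. The FTO window held a further match at 53704044 to 53704057, and the RPGRIP1L window overlaps it and holds the same 2 matches. Of 35116 promoters of the same length 1.02% held the motif. Of the 10 windows found for 9 members (WTAP has 2 and VIRMA was not in the table), 1 held it, that of FTO. A match describes letters and not a bound site.

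The second set is the known METTL16 target motif TACAGAGAA in MAT2A, with 10 bases on either side, on GRCh38 chromosome 2, plus strand, from the GENCODE v29 transcripts. MAT2A encodes the enzyme that makes S-adenosylmethionine, the methyl donor of METTL3 and METTL16, and its RNA differed between groups below. All 5 copies lie after the stop codon in exon 9 of 9, and capitals mark the motif.
Copy 1, 85543802 to 85543830: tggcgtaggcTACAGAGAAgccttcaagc
Copy 2, 85544589 to 85544617: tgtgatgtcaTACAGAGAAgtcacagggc
Copy 3, 85544774 to 85544802: ctggtgtagcTACAGAGAAaccagcttcc
Copy 4, 85544889 to 85544917: atggcgtaagTACAGAGAAgccatcacct
Copy 5, 85545112 to 85545140: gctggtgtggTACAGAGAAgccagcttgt

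Searched in the strand of the messenger over the longest coding transcript of 19669 genes, the motif occurred at least once in 3.27% of them. Only MAT2A and MUC16 held 5 copies, in transcripts of 2819 and 43816 bases. Among the 10 members, METTL14 held 1 copy and the others none.

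**Figure D1:**
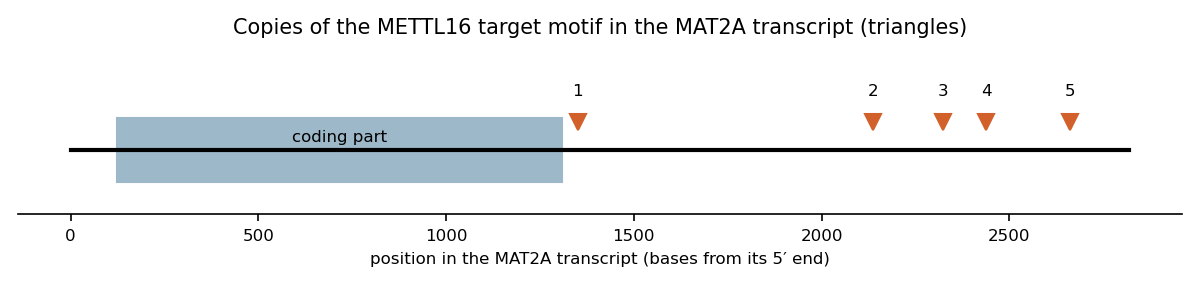
Positions of the 5 copies of TACAGAGAA (triangles) along the longest coding MAT2A transcript of 2819 bases, counted in bases from its 5′ end, with the coding part as a box. The first copy starts 43 bases after the end of the coding part and the fifth 1353 bases after it.

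FTO, the introduced gene, was more abundant in both overexpressing groups and checks the labels. It stood at 18.4, 17.0 and 25.8 CPM in Vector replicates 1 to 3, at 69.6, 77.0 and 62.6 CPM in FTO and at 49.7, 82.7 and 64.2 CPM in mut-FTO. Every overexpressing library lay above every Vector library, whereas FTO and mut-FTO overlapped. Against Vector it was 3.42-fold higher in FTO (log2 1.77, 95% interval 1.29 to 2.26, adjusted p = 0.00266) and 3.21-fold higher in mut-FTO (log2 1.68, 1.20 to 2.16, adjusted p = 0.000513), by edgeR's quasi-likelihood test with Benjamini-Hochberg adjustment, the test used throughout. FTO and mut-FTO differed by 0.09 on the log2 scale (interval −0.38 to 0.56, adjusted p = 0.909, edgeR). A read of FTO may come from the endogenous gene or from the construct, and the counts hold both. The FTO level separates Vector from the rest, whereas only the column letters separate FTO from mut-FTO, so an exchange of these letters would swap each change against Vector. In bulk RNA, fewer expressing cells and less RNA per cell cannot be told apart.

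RPGRIP1L, whose product works at the base of the primary cilium, starts beside FTO and is not part of the construct. As a separate gene, its level does not measure the RNA of the cells' own FTO gene. RPGRIP1L stood at 2.69, 1.96 and 2.96 CPM in Vector, 2.23, 2.57 and 1.97 CPM in FTO, and 1.68, 2.14 and 1.88 CPM in mut-FTO. The groups overlapped in every comparison, at 62 to 105 counts a library. Its log2 difference from Vector was −0.17 in FTO (interval −0.77 to 0.44, adjusted p = 0.855, edgeR) and −0.42 in mut-FTO (−1.03 to 0.19, adjusted p = 0.437, edgeR).

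ALKBH5, the other m6A demethylase, was the most abundant of the 10 genes. It stood at 235, 215 and 156 CPM in Vector, 249, 253 and 208 CPM in FTO, and 209.7, 244 and 229.96 CPM in mut-FTO. Vector replicate 3 was the lowest of the 9 libraries and the groups overlapped. Its log2 difference from Vector was 0.23 in FTO (interval −0.15 to 0.60, adjusted p = 0.638, edgeR) and 0.17 in mut-FTO (−0.21 to 0.55, adjusted p = 0.624, edgeR). Without Vector replicate 3 these were 0.05 and 0.01. For every 100 counts of ALKBH5 the Vector libraries had 7.83, 7.89 and 16.5 counts of FTO, the FTO libraries 27.9, 30.5 and 30.1, and the mut-FTO libraries 23.7, 33.8 and 27.9. The log2 ratio of FTO to ALKBH5 counts, which no scaling between libraries can move, was −3.31 ± 0.62 for Vector, −1.76 ± 0.07 for FTO and −1.83 ± 0.26 for mut-FTO libraries (SD, n = 3). Each overexpressing group lay wholly above Vector, at an exact two-sided permutation p of 0.1, the smallest that 3 against 3 allows (0.3 adjusted over 6 comparisons of ratios).

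Of the 9 members other than FTO, none passed the threshold of 0.05 in any comparison by edgeR, DESeq2 or limma-voom. Among all 13713 genes tested edgeR called 0.744% in FTO against Vector (0.306% higher, 0.438% lower), 7.78% in mut-FTO against Vector (3.27% higher, 4.51% lower) and 2.33% in FTO against mut-FTO. At an unadjusted p below 0.05 edgeR gave 1 of the 9 members in FTO against Vector (CBLL1), where 11.9% of all genes passed. It gave 0 of 9 in mut-FTO against Vector and in FTO against mut-FTO, where 21.1% and 14% of all genes passed. The libraries of the groups did not overlap for 1, 0 and 0 of the 9 members in these comparisons, beside 21%, 24% and 29% of all genes. With 9 genes these shares give few or no calls, so the absence of calls by itself says little. Their median log2 difference was 0.07 in FTO against Vector, 0.05 in mut-FTO against Vector and −0.17 in FTO against mut-FTO, and that of all genes tested was −0.0020, −0.0012 and 0.0046. Both contrasts with Vector share its libraries.

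**Figure D2:**
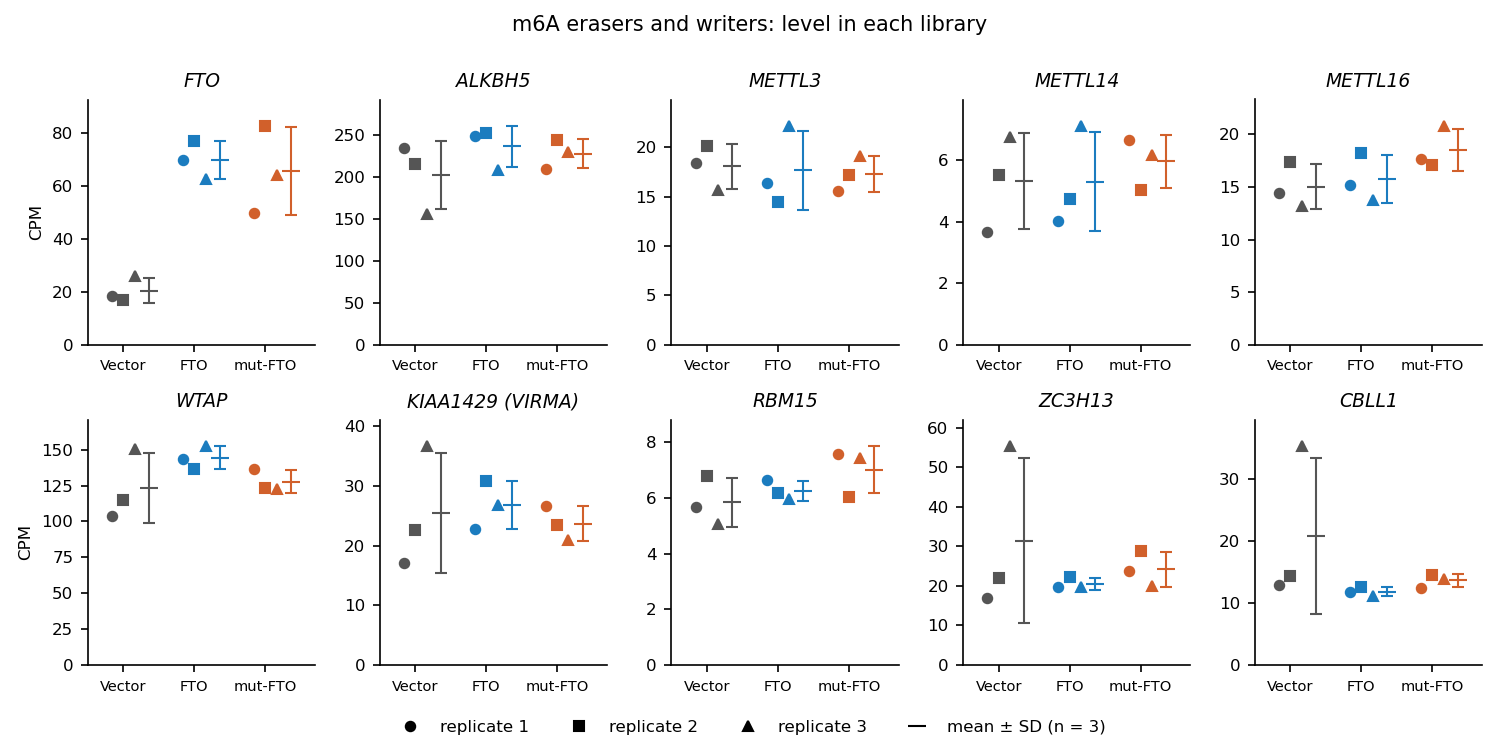
Level of each of the 10 genes (CPM, linear axis from 0) in the 9 libraries, with symbols for replicates and a bar for mean ± SD of 3 libraries in each group. FTO rises from at most 25.8 CPM in Vector to at least 49.7 CPM elsewhere, while the Vector points of ZC3H13 and CBLL1 are spread by replicate 3.

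METTL3, the catalytic subunit, stood at 18.4, 20.1 and 15.6 CPM in Vector, 16.4, 14.4 and 22.2 CPM in FTO, and 15.5, 17.1 and 19.1 CPM in mut-FTO. The group ranges all overlapped. Its log2 difference from Vector was −0.03 in FTO (interval −0.47 to 0.40, adjusted p = 0.968, edgeR) and −0.06 in mut-FTO (−0.50 to 0.37, adjusted p = 0.893, edgeR). METTL14, its partner, was the least abundant member at 3.68, 5.54 and 6.77 CPM in Vector, 4.04, 4.75 and 7.12 CPM in FTO, and 6.68, 5.02 and 6.18 CPM in mut-FTO. It rested on 126 to 249 counts a library, and its intervals are wider: −0.63 to 0.61 around −0.01 in FTO and −0.46 to 0.78 around 0.16 in mut-FTO (edgeR adjusted p = 0.994 and 0.797). The log2 ratio of METTL3 to METTL14 counts was 1.79 ± 0.56 for Vector, 1.75 ± 0.23 for FTO and 1.54 ± 0.29 for mut-FTO libraries (SD, n = 3; exact two-sided permutation p of 0.5 or more in every comparison).

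WTAP, the adaptor that binds METTL3 and METTL14, stood at 104.0, 114.9 and 150.6 CPM in Vector, 143.7, 136.7 and 152.5 CPM in FTO, and 136.8, 123.5 and 122.9 CPM in mut-FTO. Vector replicate 3 reached the range of FTO, while Vector replicates 1 and 2 lay below every FTO and mut-FTO library. The log2 difference of FTO from Vector was 0.23 (interval −0.12 to 0.58, adjusted p = 0.608, edgeR). It was 0.38 without Vector replicate 3 (adjusted p = 0.0972, edgeR) and 0.39, past the threshold, when mut-FTO replicate 2 was left out as well (adjusted p = 0.0375, edgeR). With both left out, 1050 genes were called in all in this contrast, beside 102 with all 9 libraries. In Vector replicate 3 and mut-FTO replicate 2, loci assembled without a gene name took 2.498% and 3.17% of the counts, against 0.689% to 0.875% in the other 7. Of these 2 libraries, mut-FTO replicate 2 is in neither group of this contrast and bears on it only through the model shared by all libraries. The part of the assembled loci in the WTAP value was not tested.

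KIAA1429 (VIRMA), the scaffold of the complex, stood at 17.1, 22.6 and 36.7 CPM in Vector, 22.8, 30.8 and 26.8 CPM in FTO, and 26.7, 23.5 and 20.9 CPM in mut-FTO. The Vector libraries spanned both other groups. RBM15, which binds RNA and brings the complex to it, stood at 5.67, 6.79 and 5.07 CPM in Vector, 6.64, 6.17 and 5.95 CPM in FTO, and 7.57, 6.04 and 7.45 CPM in mut-FTO. Its groups overlapped too. Against Vector the log2 differences in FTO and mut-FTO were 0.07 and −0.10 for KIAA1429 and 0.10 and 0.26 for RBM15, with edgeR adjusted p of 0.515 or more. Without Vector replicate 3 they were 0.41 and 0.25 for KIAA1429 and −0.02 and 0.17 for RBM15.

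ZC3H13, a zinc finger protein that keeps the complex in the nucleus, stood at 16.9, 22.1 and 55.3 CPM in Vector, 19.6, 22.1 and 19.7 CPM in FTO, and 23.6, 28.8 and 20.0 CPM in mut-FTO. CBLL1 (Hakai), a RING finger protein of the complex, stood at 12.8, 14.4 and 35.3 CPM in Vector, 11.7, 12.6 and 11.1 CPM in FTO, and 12.5, 14.5 and 13.9 CPM in mut-FTO. Both were at their highest in Vector replicate 3, where the other 8 libraries spanned 16.9 to 28.8 and 11.1 to 14.5 CPM. CBLL1 did not overlap between FTO and Vector, as 21% of all genes tested did not. Its log2 difference was −0.82 (interval −1.51 to −0.13, adjusted p = 0.335, edgeR), and −0.23 without Vector replicate 3. For ZC3H13 the difference of FTO from Vector was −0.62 (−1.38 to 0.14, adjusted p = 0.508, edgeR), and 0.05 without that library. In mut-FTO against Vector the values were −0.61 for CBLL1 and −0.38 for ZC3H13, and −0.01 and 0.30 without it.

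**Figure D3:**
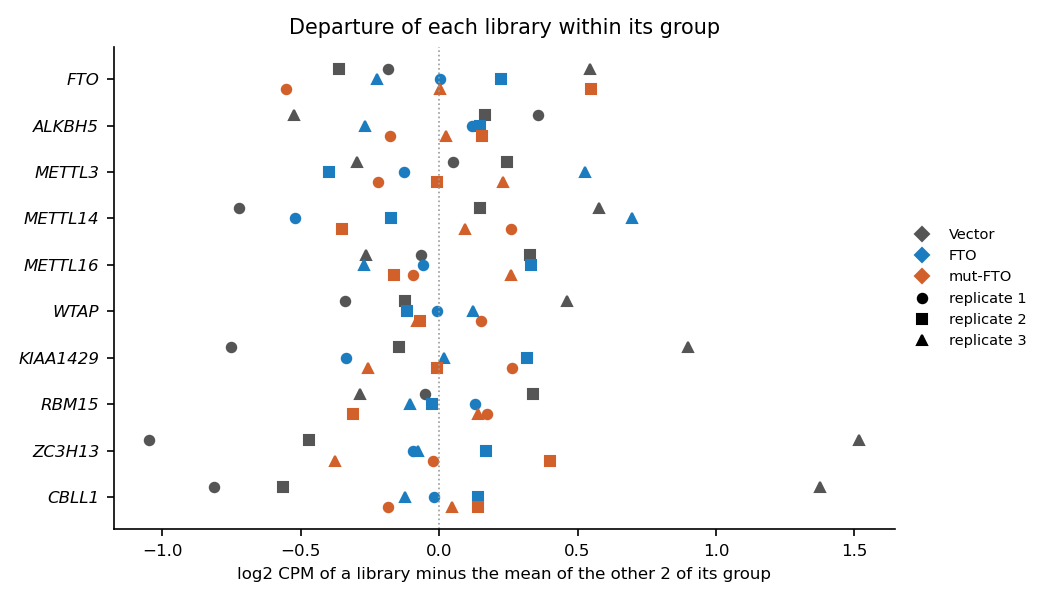
log2 CPM of each library minus the mean of the other 2 libraries of its group, for the 10 genes, with colours for groups and symbols for replicates. Vector replicate 3 (grey triangles) reaches 1.52 for ZC3H13 and 1.38 for CBLL1.

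Vector replicate 3 stood apart in the whole table, with 14.97% of its counts from mitochondrially encoded genes against 3.805% to 7.45% in the other 8 libraries. Compared with the other Vector libraries, 5 of the 10 members were at least 0.5 higher there on the log2 scale and 1, ALKBH5, was at least 0.5 lower. Over all genes tested 26.6% were that much higher and 26.7% lower. The departure was largest for ZC3H13, at 1.52, and CBLL1, at 1.38, followed by KIAA1429 at 0.90. Across 12720 genes with a known transcript length the departure had a Spearman rho with length of 0.36 in this library and −0.44 in Vector replicate 1, a description over genes of the same libraries. These 2 values are not independent, as each library is set against the others of its group. Outside Vector rho ran from −0.14 (FTO replicate 3) to 0.25 (FTO replicate 2). The part of the state of Vector replicate 3 in the values of ZC3H13 and CBLL1 was not tested further than by leaving that library out.

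METTL16 stood at 14.5, 17.4 and 13.2 CPM in Vector, 15.2, 18.2 and 13.8 CPM in FTO, and 17.7, 17.1 and 20.8 CPM in mut-FTO. Its groups overlapped, with log2 differences from Vector of 0.07 in FTO (interval −0.34 to 0.48, adjusted p = 0.916, edgeR) and 0.30 in mut-FTO (−0.10 to 0.71, adjusted p = 0.392, edgeR). FTO against mut-FTO gave −0.24 (−0.64 to 0.17, adjusted p = 0.653, edgeR).

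**Figure D4:**
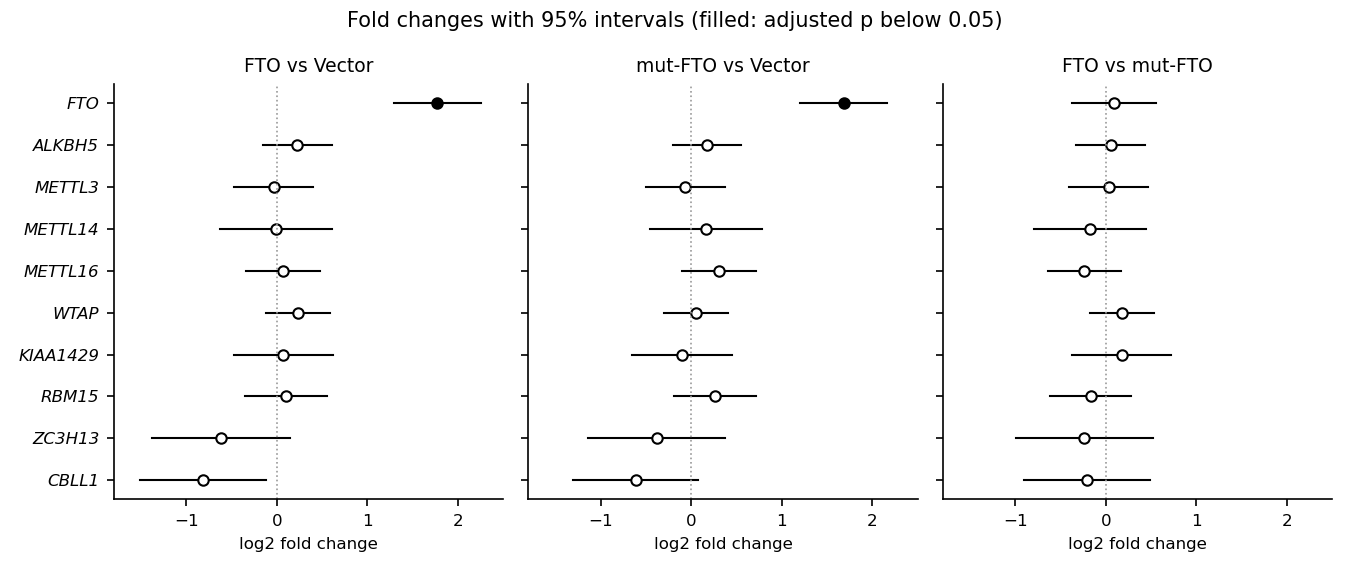
log2 fold change of the 10 genes in each comparison (points) with 95% intervals from edgeR (lines), filled where the adjusted p was below 0.05. FTO is the only filled point, in both contrasts with Vector, and the intervals of the other 9 genes lie between −1.51 and 0.78.

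Set per kilobase of the longest coding GENCODE v29 transcript, the levels in Vector ran from ALKBH5 at 73.6 CPM per kilobase and WTAP at 33.7, through METTL3 at 8.96, CBLL1 at 4.70, ZC3H13 at 3.92, KIAA1429 at 3.90 and METTL16 at 2.63, to FTO at 1.73, RBM15 at 1.38 and METTL14 at 0.799. Over the Vector libraries ALKBH5 lay wholly above WTAP, and WTAP above METTL3. METTL3 and CBLL1 overlapped, as did each pair of neighbours from CBLL1 to METTL16, and FTO and RBM15. METTL16 lay above FTO, and RBM15 above METTL14, without overlap. In FTO cells the FTO level rose to 5.93 ± 0.61 and in mut-FTO to 5.57 ± 1.40 CPM per kilobase (SD, n = 3), still far below ALKBH5 at 86.1 ± 8.99 in FTO. The FTO length used, 11766 bases, is that of its longest coding transcript, and shorter transcripts would place it higher. The labels do not give the length of the construct.

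MAT2A, the S-adenosylmethionine synthetase shown above with its METTL16 motifs, was lower in mut-FTO, and a link to those motifs was not tested. MAT2A stood at 91.4, 98.7 and 109.9 CPM in Vector, 89.2, 91.4 and 85.1 CPM in FTO, and 60.4, 66.5 and 64.6 CPM in mut-FTO. All mut-FTO libraries lay below all others, and FTO overlapped Vector. Against Vector it was 1.57-fold lower in mut-FTO (log2 −0.65, interval −0.96 to −0.34, adjusted p = 0.0138, edgeR), a call lost without mut-FTO replicate 3 (0.0649) or when only the 6 samples compared were fitted (0.0724). Between FTO and mut-FTO it differed by 0.47 (0.16 to 0.78, adjusted p = 0.121, edgeR), and passed only by DESeq2 (0.021), without Vector replicate 3 (0.0087), or in 2 further fits on fewer libraries. In mut-FTO against Vector it was the only 1 of 11 genes of the S-adenosylmethionine cycle and 2-oxoglutarate supply to pass by edgeR. There the median of the 11 was −0.08, and 7.78% of all genes tested passed (DESeq2 also called AHCYL2 of the 11). By edgeR none of the 11 passed in FTO against Vector or FTO against mut-FTO, and DESeq2 called 0 and 1. At an unadjusted p below 0.05 edgeR gave 0 and 1, beside 11.9% and 14% of all genes tested. The 1 gene was MAT2A in both cases. MAT2B, the regulatory subunit, had the lowest p in FTO against Vector (log2 0.35, adjusted p = 0.52, edgeR, and 0.21 without Vector replicate 3).

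IRX3, a homeobox transcription factor downstream of FTO on chromosome 16 (54283304 to 54286787), was higher in mut-FTO, on a call that was easily lost. It stood at 17.1, 15.6 and 13.9 CPM in Vector, 13.9, 17.7 and 14.6 CPM in FTO, and 23.6, 25.1 and 26.4 CPM in mut-FTO. The mut-FTO libraries lay above all others. Against Vector the log2 difference was 0.69 (interval 0.31 to 1.06, adjusted p = 0.0288, edgeR). It lost the threshold in 10 of 20 alternatives, among them the fits without any 1 of the FTO or mut-FTO libraries or Vector replicate 2 (adjusted p 0.0501 to 0.119). FTO against mut-FTO gave −0.70 (−1.07 to −0.32, adjusted p = 0.059, edgeR), which passed by DESeq2 (0.0034) and without Vector replicate 3 (0.0031). By edgeR it also passed when only the 6 samples compared were fitted (0.0062) and without both Vector replicate 3 and mut-FTO replicate 2 (0.0049). Of the 6 tested genes next to FTO it was the only one past the threshold in any comparison by edgeR, DESeq2 or limma-voom. For mut-FTO over Vector, edgeR called 7.78% of all genes tested, and the median log2 difference of the 6 was −0.21. There 1 of the 6 had an unadjusted p below 0.05 (edgeR), beside 21.1% of all genes. Between FTO and mut-FTO it was 2 of the 6 beside 14%, and for FTO over Vector 0 beside 11.9%. With 6 genes, 1 call by itself says little. CHD9, a chromatin remodeler, had the lowest p in FTO against Vector, at −0.53 (adjusted p = 0.528, edgeR), and at −0.05 without Vector replicate 3.

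**Figure D5:**
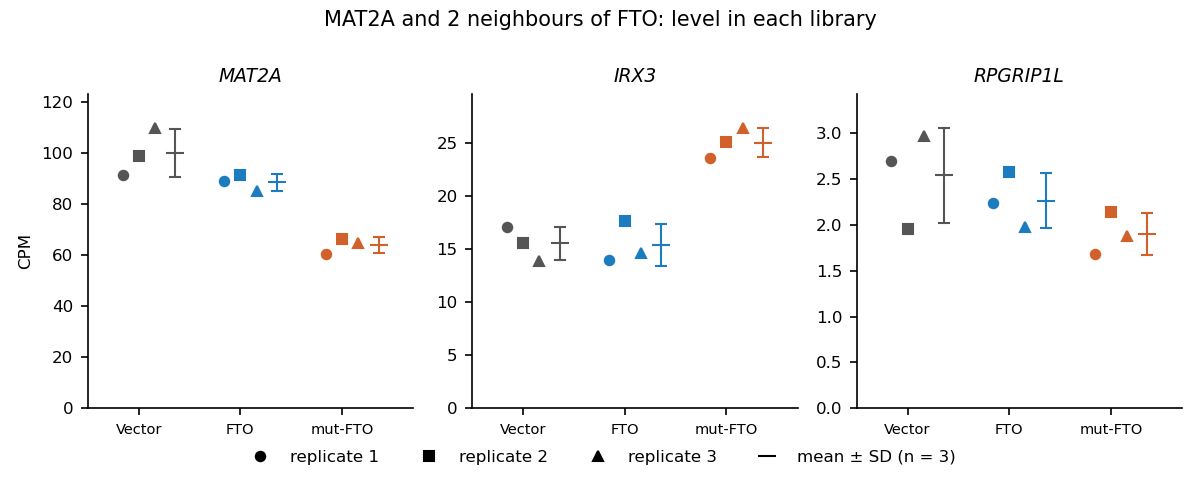
Level (CPM, linear axis from 0) of MAT2A, IRX3 and RPGRIP1L in the 9 libraries, with symbols for replicates and a bar for mean ± SD of 3 libraries. The mut-FTO points of MAT2A lie at 60.4 to 66.5 CPM, below all others, those of IRX3 at 23.6 to 26.4 CPM, above all others, and RPGRIP1L overlaps across groups.

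No gene of the related families passed in any comparison by edgeR, DESeq2 or limma-voom. Of 16 other RNA methyltransferases, edgeR gave 1 in FTO against Vector, 0 in mut-FTO against Vector and 0 in FTO against mut-FTO at an unadjusted p below 0.05. Of all genes tested 11.9%, 21.1% and 14% passed there. The median log2 differences of the 16 were 0.18, 0.15 and 0.05 in these comparisons, beside −0.0020, −0.0012 and 0.0046 over all genes tested. METTL2A, a tRNA methyltransferase, had the lowest p in FTO against Vector (log2 0.45, interval 0.07 to 0.82, adjusted p = 0.326, edgeR). It stood at 18.5, 17.3 and 13.98 CPM in Vector and 22.6, 22.1 and 23.3 CPM in FTO. Without Vector replicate 3 its difference was 0.32 (adjusted p = 0.249, edgeR). WDR4, which acts with METTL1 on tRNA, had the lowest p in mut-FTO against Vector, at 0.49 (adjusted p = 0.352, edgeR), and was at 0.17 without Vector replicate 3, its lowest library at 5.36 CPM. The cytosine methyltransferase NSUN2 had it in FTO against mut-FTO, at 0.24 (adjusted p = 0.529, edgeR), and was at 0.14 without mut-FTO replicate 2. Of the 7 other AlkB-family dioxygenases, relatives of FTO and ALKBH5, 0, 1 and 0 had an unadjusted p below 0.05 (edgeR), beside the same shares of all genes. Their medians were 0.24, 0.29 and −0.21 in the same order of comparisons. ALKBH7, a mitochondrial member of the family, had the lowest p against Vector in FTO (0.66, adjusted p = 0.541, edgeR) and mut-FTO (0.89, adjusted p = 0.229, edgeR). It stood at 45.2, 36.9 and 9.36 CPM in Vector, and its differences were 0.21 and 0.46 without replicate 3. With mut-FTO replicate 2 left out as well, that of mut-FTO was 0.56 and passed (adjusted p = 0.0153, edgeR), in a fit that called 2401 genes in all, beside 1067 with all 9 libraries. ALKBH6 had the lowest p in FTO against mut-FTO, at −0.43 (adjusted p = 0.41, edgeR), and −0.23 without mut-FTO replicate 2.

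The m6A readers, proteins that bind the mark, gave 0 calls of 11 tested by edgeR, DESeq2 or limma-voom in each comparison. At an unadjusted p below 0.05 edgeR gave 1, 1 and 0 of the 11, where 11.9%, 21.1% and 14% of all genes passed. Their medians were −0.08, −0.04 and 0.01. IGF2BP3, which stabilises messengers it binds, had the lowest p in both contrasts with Vector, at −0.78 in each (edgeR adjusted p = 0.368 in FTO and 0.176 in mut-FTO). It stood at 18.1, 25.5 and 54.8 CPM in Vector against 18.2 to 20.2 CPM in FTO and 16.4 to 21.2 CPM in mut-FTO. As with ZC3H13, the Vector mean rested on replicate 3, in which 7 of the 11 readers were at least 0.5 higher and 0 at least 0.5 lower. Of all genes tested 26.6% were that much higher there and 26.7% lower. Without Vector replicate 3 the differences of IGF2BP3 were −0.21 and −0.20. Without Vector replicate 1 that of mut-FTO was −1.08 and passed (adjusted p = 0.0259, edgeR). PRRC2A had the lowest p in FTO against mut-FTO (−0.39, adjusted p = 0.364, edgeR, and −0.24 without mut-FTO replicate 2).

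The 5 genes whose log2 CPM followed that of FTO most closely over the 9 libraries were IGFBP3, HMGB3, KANK1, CCDC80 and RPS4X, with Pearson r from 0.92 to 0.95 among 9564 genes with a mean of at least 5 CPM. FTO falls into 2 levels, Vector and the rest, so r depends heavily on that step, and the measure describes these libraries only. Genes picked this way tend to differ from Vector by the choice itself, so their p-values below are no separate evidence. Of all genes tested edgeR called 0.744% in FTO and 7.78% in mut-FTO, each against Vector. IGFBP3, which binds insulin-like growth factors, rose from 544 ± 54.4 CPM in Vector to 1253 ± 53.5 in FTO (log2 1.20, adjusted p = 0.0033, edgeR) and 1362 ± 122 in mut-FTO (log2 1.32, adjusted p = 0.000242, edgeR; SD, n = 3 each). HMGB3, KANK1 and CCDC80 passed in neither contrast with Vector (edgeR adjusted p of 0.122 or more), and RPS4X passed in mut-FTO only (adjusted p = 0.0452, against 0.177 in FTO, edgeR; the difference between these contrasts was not tested). For METTL3, whose groups overlapped, the closest included MTMR4, STAC, AP4B1 and TMEM45B, at r of 0.78 to 0.87. They too were picked as the highest of 9564 genes over only 9 libraries, so a high r by itself says little.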

How the data were processed

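RNA levels were measured by poly(A) RNA sequencing in 9 HaCaT libraries. The authors deposited a table of raw whole-number counts for each gene, with no normalization. HISAT2 and StringTie are named in the submitters' processing notes. These notes also name mm10, a mouse build, for human cells with human symbols, so no coordinate was taken from the table. Coordinates and sequences come from RefSeq GRCh38.p14 and GENCODE v29 (GRCh38). The sources used here give no counter, strand setting or annotation. Columns carry letters, matched to groups by those letters and to replicates by number.

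Depth was 32222203 to 37846027 counts per library. All pairs of libraries within a group differed beyond sampling noise. The test was edgeR 4.0.16 (R 4.3.3): filterByExpr (minimum count 10, minimum total 15), TMM scaling, 1 robust quasi-likelihood model over all 9 libraries, Benjamini-Hochberg adjustment over 13713 genes, threshold 0.05. Standard errors and 95% intervals come from the fold change and F statistic. CPM uses TMM-scaled sizes. Ratios of counts used a pseudocount of 0.5 and an exact permutation test. The test was tried on simulated data first, in which no library was set apart as Vector replicate 3 was. That trial does not show how the test behaves with such a library.

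The members and gene lists were chosen with earlier results of these data known. Named genes are all members, of each list those called or else the one of lowest p, and the 5 genes nearest FTO and METTL3 by Pearson r of log2 CPM with a prior count of 2; 1 gene this rule takes is not reported here. Alternatives were DESeq2 1.42.0, voom of limma 3.58.1, RLE factors, unscaled library sizes, library sizes without FTO, a filter at a mean of 10 counts or none, a fit of the 6 samples compared, a replicate block, no assembled or mitochondrial loci, Vector replicate 3 and mut-FTO replicate 2 left out together, and each replicate left out.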

Additional observations from a re-analysis of the deposited data

How the results depend on the processing

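The call of FTO held in all 20 alternatives in both contrasts with Vector, at 1.66 to 1.97 in FTO and 1.49 to 1.88 in mut-FTO (log2). Over 50 gene results in 20 alternatives, 942 of 1000 values kept direction and side of the threshold, 12 lost a call, 11 gained one and 35 changed sign, none of them with a call in either fit. The causes of these shifts were not tested. Counts of called genes ranged from 27 to 1050 in FTO against Vector, 609 to 2401 in mut-FTO against Vector and 71 to 1427 in FTO against mut-FTO, beside 102, 1067 and 319, and DESeq2 gave 366, 1680 and 751.

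When Vector 3 and mut-FTO 2 were both left out, 1 of the 9 other members was called in FTO against Vector (WTAP, 0.385). This fit called 1050 genes in all in that contrast, beside 102 with all 9 libraries, so 1 call among 9 says little. In that fit the sign changed in mut-FTO against Vector for ALKBH5 (−0.0622), KIAA1429 (0.237) and ZC3H13 (0.140), and in FTO against Vector for METTL14 (0.187), METTL16 (−0.0287), RBM15 (−0.00878) and ZC3H13 (0.0589). WTAP in mut-FTO against Vector was −0.0182 with library size alone.

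With 1 library left out at a time, these uncalled differences changed sign within their ranges. In FTO against Vector KIAA1429 ran from −0.147 to 0.409, METTL14 from −0.307 to 0.179, METTL16 from −0.0479 to 0.187, METTL3 from −0.257 to 0.0949, RBM15 from −0.0177 to 0.219, ZC3H13 from −0.918 to 0.0502 and IRX3 from −0.118 to 0.0645. In mut-FTO against Vector KIAA1429 ran from −0.325 to 0.249, METTL14 from −0.0455 to 0.365, METTL3 from −0.168 to 0.0186, WTAP from −0.0569 to 0.215 and ZC3H13 from −0.683 to 0.301. In FTO against mut-FTO ALKBH5 ran from −0.00133 to 0.124, FTO from −0.0726 to 0.286 and METTL3 from −0.179 to 0.160.

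Same-numbered libraries of different groups had correlations of their departures of −0.13 to 0.11, so the numbers were not taken to pair them. With the number as a replicate block, FTO was at 1.78 and 1.67 against Vector and 0.11 between FTO and mut-FTO, 0 of the 9 other members were called in any comparison, 67, 813 and 222 genes were called in all, and IRX3 in mut-FTO against Vector had an adjusted p of 0.0661 (edgeR).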
